A study of Homo sapiens with 6 samples.

Results

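The 8 genes described here encode RNA-binding proteins that set how long inflammatory messenger RNAs survive: ZFP36, ZFP36L1, ZFP36L2, ZC3H12A, RC3H1, RC3H2, ELAVL1 and HNRNPD. They were chosen by name, as binders of AU-rich elements or of stem-loops, and all 8 were found among the 19655 genes of the deposited count table. Each passed the filter on low counts. The libraries came from HCT116, an established human colorectal carcinoma line, as 3 control libraries (NC) and 3 libraries of cells transfected with an antisense oligonucleotide against the small nucleolar RNA SNORA67 (ASO). The labels call the second group SNORA67 knockdown, and SNORA67 itself was not analysed here. The labels do not say what the control cells received, nor the sequence, dose and duration of the oligonucleotide treatment. The stated purpose is to learn how SNORA67 promotes properties of these cancer cells, and the design implies 1 comparison, ASO against NC.

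Many cytokine and growth-response mRNAs carry AU-rich elements (AREs) in their 3' untranslated region, runs of A and U that contain the pentamer AUUUA. Proteins of the ZFP36 family bind them through paired CCCH zinc fingers and recruit the CCR4-NOT deadenylase, which shortens the poly(A) tail and leads to decay. ELAVL1 (HuR) binds similar sequences and is best known for stabilising the mRNA, while HNRNPD (AUF1) is known mostly as a destabiliser. ZC3H12A (Regnase-1) is an endonuclease that cuts stem-loops of mRNAs such as that of IL6, and RC3H1 and RC3H2 (Roquin-1 and Roquin-2) bind related stem-loops and recruit deadenylases. Several of these genes are themselves induced by inflammatory signals and act in negative feedback.

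The estimated counts summed to between 50728524 and 53715905 per NC library and between 49136502 and 54905215 per ASO library. Since no label says that replicates came from separate cultures, all p-values reflect the spread of these libraries alone, and that spread may be technical. Bulk RNA cannot separate a change in RNA per cell from a change in the mix of cells. Of 10 epithelial and colon markers, 4 reached 1 CPM (counts scaled to library size) in the NC mean, among them KRT8 and KRT18, while EPCAM stood at 4.40 ± 1.17 CPM and CDH1 at 1.07 ± 0.231 CPM in NC (SD, n = 3). CDX2 and KRT20 stayed under 1 CPM in both groups and CDH17 was at 0 counts in every NC library. Of 10 mesenchymal markers 8 reached 1 CPM, with summed levels of 2392 to 2683 CPM in NC and 3289 to 3766 CPM in ASO. VIM and COL5A1, of the mesenchymal list, were at 1208 ± 71.7 and 615 ± 29.3 CPM in NC. COL1A2 and COL3A1, of the same list, were at 0.0496 ± 0.086 and 0.586 ± 0.0299 CPM in NC. The epithelial and colon markers summed to 1942 to 2198 CPM in NC and 1674 to 2123 CPM in ASO. Most of that came from KRT8 and KRT18, at 1367 ± 83.8 and 716 ± 49.9 CPM in NC. The name HCT116 is taken from the labels, and whether the libraries come from that line was not tested. Of 8 immune markers, 1 reached 1 CPM in NC and 4 in ASO, summed to 2.86 to 4.23 CPM and 13.7 to 15.2 CPM, and PTPRC and CD3E were at 0 in all 6 libraries. Endothelial markers summed to 9.67 to 10.8 CPM in NC and 14.8 to 19.4 CPM in ASO. The part of these levels in the results was not tested.

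Of the 8 genes, 5 were higher in ASO (ZFP36, ZFP36L1, ZFP36L2, ZC3H12A and RC3H1), 1 was lower (HNRNPD) and 2 did not pass (RC3H2 and ELAVL1), at an adjusted p under 0.05 in edgeR's quasi-likelihood test. Among all 14062 genes tested, 26.8% were called higher, 19.1% lower and 46.0% in either direction. The median log2 fold change of the 8 genes was 0.98, against 0.01 over all genes tested. The libraries did not overlap for 5 of the 8 genes, each higher in ASO, where 31.6% of all genes lay wholly above and 57.5% did not overlap in either direction. Leaving out single libraries gave between 3 and 5 higher genes and between 0 and 1 lower. The count of higher genes was 3 without NC replicate 1 and without NC replicate 3. The lower gene was lost without NC replicate 1 or 2 and without ASO replicate 1 or 3.

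**Figure D1:**
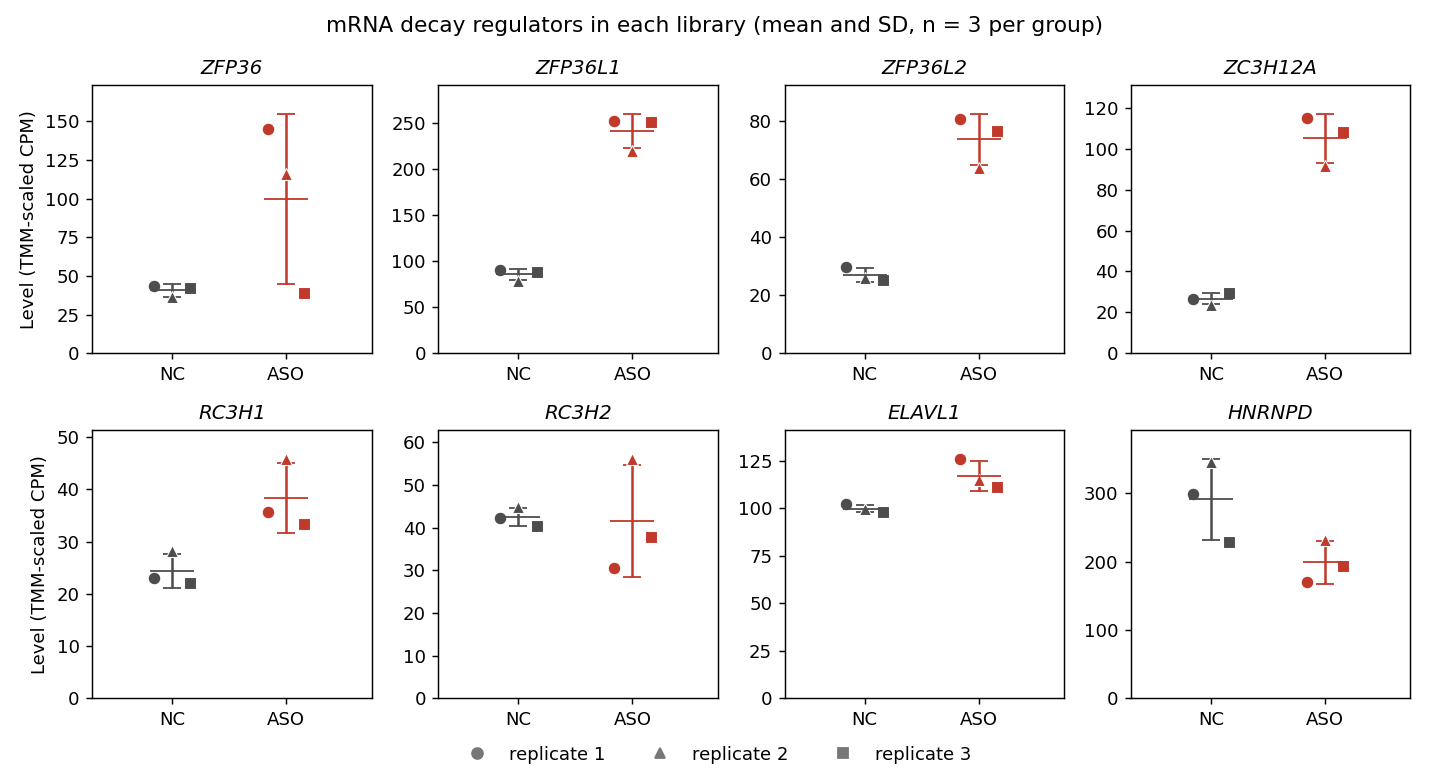
Level of each gene in each library, in CPM after TMM scaling (trimmed mean of M values), on axes that start at 0. Points are libraries with shapes for replicate numbers, and bars are the mean ± SD of 3 libraries. ZFP36L1, ZFP36L2 and ZC3H12A stand clear of NC in all 3 ASO libraries, and ZFP36 in ASO replicate 3 lies at the NC level.

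ZFP36 (tristetraprolin), the founding member of the zinc finger family, lies on chromosome 19 at 39406847 to 39409412 (hg38, coordinates of the deposited table). Its transcript is short, with 2 exons. It stood at 43.8, 36.1 and 41.9 CPM in the NC libraries and at 145, 116 and 38.8 CPM in the ASO libraries. ASO replicates 1 and 2 were far above NC, and ASO replicate 3 lay within the NC range. The fitted rise was 2.46-fold (log2 1.30 ± 0.41, SE; 95% interval 0.35 to 2.25; edgeR adjusted p = 0.0332). The call was lost in 8 of 15 alternative fits. The edgeR adjusted p was 0.0751, 0.128 and 0.0916 without NC replicates 1, 2 and 3, and 0.144 and 0.137 without ASO replicates 1 and 2. Without ASO replicate 3 the log2 fold change was 1.68 and the edgeR adjusted p 0.000543. The call also ended with limma-voom (adjusted p = 0.0879) and when low counts were not filtered out (edgeR adjusted p = 0.0768).

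Few genes shared the pattern of ZFP36, high in ASO replicates 1 and 2 and low in ASO replicate 3. The SD of its log2 CPM over the ASO libraries was 1.02, above that of 99.7% of the 1765 genes at a similar ASO level, whose median SD was 0.15. Of 1921 genes at least 2-fold above the highest NC library in both ASO replicate 1 and ASO replicate 2, 8 lay below the highest NC library in ASO replicate 3, ZFP36 among them. With ASO replicate 1 or 2 in that place the counts were 14 of 1957 and 13 of 2035. The nearest gene of the table, PLEKHG2, which begins 3257 bases away, was at 107 CPM in ASO replicate 3 before TMM scaling, against 111 and 83.4 CPM in ASO replicates 1 and 2 and 48.9 to 56.7 CPM in NC. It thus followed the other ASO libraries where ZFP36 did not. Whether reads of ZFP36 were assigned to another feature in ASO replicate 3 was not tested, since that needs the reads. These counts and this neighbour were chosen after the values were seen.

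ZFP36L1 (chromosome 14, 68787662 to 68796253), a paralog of ZFP36, was at 90.7, 78.9 and 87.9 CPM in NC replicates 1 to 3 and at 253, 220 and 252 CPM in ASO replicates 1 to 3. The ASO libraries agree within 1.15-fold and the lowest was 2.43-fold above the highest NC library. The rise was 2.82-fold (log2 1.49 ± 0.10, SE; edgeR adjusted p = 2.21e-05). ZFP36L2 (chromosome 2, 43222402 to 43226606), the third paralog, was at 29.7, 26.0 and 25.4 CPM in NC replicates 1 to 3 and at 80.7, 63.7 and 76.7 CPM in ASO replicates 1 to 3. The groups were again apart, with a rise of 2.73-fold (log2 1.45 ± 0.13, SE; edgeR adjusted p = 0.000108). Both calls held in all 15 alternative fits, with log2 fold changes of 1.45 to 1.55 for ZFP36L1 and 1.37 to 1.54 for ZFP36L2.

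ZC3H12A (chromosome 1, 37474580 to 37484377), the stem-loop endonuclease, had the largest change of the 8. It was at 26.7, 23.8 and 29.4 CPM in NC replicates 1 to 3 and at 115, 91.4 and 108 CPM in ASO replicates 1 to 3. Every ASO library was at least 3.11-fold above every NC library. The rise was 3.93-fold (log2 1.97 ± 0.13, SE; 95% interval 1.67 to 2.28; edgeR adjusted p = 2.26e-05) and the call held in all 15 alternative fits. Its log2 fold change exceeded that of 88.3% of all genes tested, and those of ZFP36, ZFP36L1 and ZFP36L2 exceeded 83.8%, 85.4% and 85.0%. A fitted rise of 2-fold or more with an adjusted p under 0.05, which these 4 genes had, was found for 16.9% of all genes.

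The sequences upstream of the steepest riser, ZC3H12A, and of ZFP36, the family member that varied most, are shown because both are known feedback genes whose promoters respond to signals. Each is the stretch from 250 to 51 bases before the RefSeq start (GRCh38.p14, plus strand), chr1:37474330-37474529 and chr19:39406597-39406796, with capitals for a motif match.
ZC3H12A: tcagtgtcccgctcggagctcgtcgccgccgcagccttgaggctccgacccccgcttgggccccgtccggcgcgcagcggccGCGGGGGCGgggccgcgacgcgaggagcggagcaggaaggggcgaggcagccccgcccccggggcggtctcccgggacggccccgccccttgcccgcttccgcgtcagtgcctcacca
ZFP36: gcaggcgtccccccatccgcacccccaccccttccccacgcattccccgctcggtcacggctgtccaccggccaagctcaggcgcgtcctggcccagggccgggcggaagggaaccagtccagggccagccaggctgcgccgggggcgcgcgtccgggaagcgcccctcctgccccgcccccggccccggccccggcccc
The capitals mark the EGR motif GCGNGGGCG, 168 to 160 bases before the start of ZC3H12A. On both strands of the 250 bases before the start, this motif was present in 8.25% of 27305 RefSeq promoters. The AP-1 motif TGANTCA (6.60% of promoters), the cyclic AMP response element TGACGTCA (1.77%), the serum response CArG box (1.14%) and the NF-kB site (9.57%) had no match in either window, which says only that those letters are not there. The RefSeq window of RC3H2 had the NF-kB site, read on both strands at overlapping positions. The windows of ZFP36L1, RC3H1 and HNRNPD do not end at the gene start of the deposited table, and their motifs were not used. ZFP36L2 and ELAVL1 had no window in the RefSeq set used here and were not searched.

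RC3H1 (Roquin-1; chromosome 1, 173931084 to 174022357), a ring finger protein that binds stem-loops, was at 23.0, 28.1 and 22.0 CPM in NC replicates 1 to 3 and at 35.7, 45.8 and 33.4 CPM in ASO replicates 1 to 3. The groups did not overlap, and the lowest ASO library was 1.19-fold above the highest NC library. The rise was 1.57-fold (log2 0.65 ± 0.16, SE; edgeR adjusted p = 0.013), and it narrowly missed the threshold without NC replicate 1 or 3 (edgeR adjusted p = 0.058 and 0.0582). Its paralog RC3H2 (Roquin-2; chromosome 9, 122844556 to 122905359) was at 42.2, 44.8 and 40.4 CPM in NC replicates 1 to 3 and at 30.6, 56.1 and 37.7 CPM in ASO replicates 1 to 3. The ASO libraries lay on both sides of the NC range. The fitted log2 fold change was -0.03 with a 95% interval of -0.52 to 0.45 (edgeR adjusted p = 0.908), an interval that reaches a rise of 1.37-fold. Its sign turned positive without NC replicate 2 (0.02), ASO replicate 1 (0.14) or ASO replicate 3 (0.03).

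ELAVL1 (HuR; chromosome 19, 7958573 to 8005659), the stabiliser, was at 102, 99.4 and 98.0 CPM in NC replicates 1 to 3 and at 126, 115 and 111 CPM in ASO replicates 1 to 3. All ASO libraries were above all NC libraries, the lowest by 1.09-fold. The difference of 1.18-fold (log2 0.23 ± 0.09, SE; 95% interval 0.03 to 0.44) missed the threshold in edgeR (adjusted p = 0.0604). It passed in DESeq2 (adjusted p = 0.0468) and with counts divided by 4 (edgeR adjusted p = 0.0456). Over all 15 alternative fits the adjusted p ran from 0.0255 to 0.187.

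HNRNPD (AUF1; chromosome 4, 82352498 to 82374503), made as several protein isoforms that bind AREs, was the member that fell. It was at 298, 346 and 229 CPM in NC replicates 1 to 3 and at 170, 232 and 194 CPM in ASO replicates 1 to 3. ASO replicate 2 was just above NC replicate 3, so the groups overlapped. The fall was 1.47-fold (log2 -0.55 ± 0.17, SE; edgeR adjusted p = 0.0298). It missed the threshold without NC replicate 1, NC replicate 2, ASO replicate 1 or ASO replicate 3, with edgeR adjusted p-values of 0.0899, 0.112, 0.0831 and 0.0909. HNRNPDL, its nearest paralog and nearest neighbour on the chromosome, fell 1.31-fold from 226 ± 17.1 to 173 ± 32.8 CPM (edgeR adjusted p = 0.0494), a call that was lost on leaving out any single library other than ASO replicate 2. In the reference annotation (GENCODE 29) HNRNPD and ELAVL1 each overlap an antisense gene, by 203 and 890 bases, and whether the counts used strand is not stated by the labels.

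**Figure D2:**
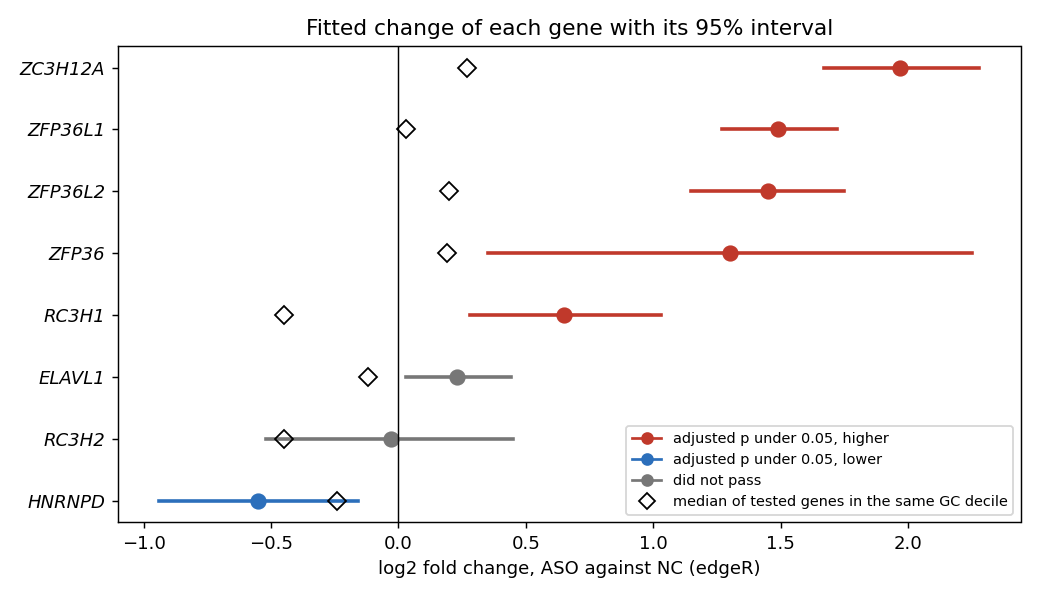
Fitted log2 fold change of each gene, ASO against NC, with its 95% interval from edgeR. Open diamonds give the median change of all tested genes in the same decile of transcript GC content. The intervals of ZC3H12A, ZFP36L1 and ZFP36L2 lie above 1, and that of RC3H2 spans 0.

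Levels of different genes were compared per kilobase of the reference transcript (GENCODE 29). The order depends on that 1 chosen transcript per gene, 6015 bases long for ELAVL1 and 2684 for ZC3H12A. Which transcripts were expressed was not tested. HNRNPD was the most abundant in NC, at 96.0 ± 19.4 CPM per kb, and RC3H1 the least, at 2.16 ± 0.29 CPM per kb (SD, n = 3). Between them in NC stood ZFP36L1 at 26.9 ± 1.94, ZFP36 at 22.7 ± 2.24, ELAVL1 at 16.6 ± 0.314, ZC3H12A at 9.93 ± 1.04, ZFP36L2 at 7.32 ± 0.637 and RC3H2 at 4.59 ± 0.237 CPM per kb. Neighbours in this order did not overlap between libraries, the closest being ZFP36L1 and ZFP36, whose lowest and highest NC libraries were at 24.7 and 24.5 CPM per kb. In ASO, ZFP36L1 reached 75.8 ± 5.82 CPM per kb and overlapped HNRNPD, at 65.5 ± 10.4, while ZFP36 ran from 21.7 to 81.3 CPM per kb. ZC3H12A rose past ELAVL1, with 39.0 ± 4.5 against 19.5 ± 1.32 CPM per kb, and ZFP36L2 drew level with ELAVL1 at 19.9 ± 2.4. RC3H1 and RC3H2, at 3.40 ± 0.587 and 4.48 ± 1.42 CPM per kb, overlapped in ASO.

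The ratio of paired genes within a library needs no scaling between libraries. For 7 pairs it was compared between groups by an exact two-sided permutation test, which cannot go below p = 0.1 with 3 libraries against 3. ZFP36L1 over ZFP36L2 had a log2 ratio of 1.67 ± 0.11 in NC and 1.72 ± 0.07 in ASO (SD, n = 3; exact permutation p = 0.6, adjusted 0.84 over the 7 pairs). The ratio of ZFP36 to ZFP36L1 was -1.05, -1.13 and -1.07 in NC and -0.80, -0.93 and -2.70 in ASO, so ASO replicates 1 and 2 were above NC and ASO replicate 3 was below. ZFP36 over ZFP36L2 had the same shape, and both tests gave an exact permutation p of 1.0. RC3H1 over RC3H2 rose by 0.73 on the log2 scale, from -0.87, -0.67 and -0.88 to 0.22, -0.29 and -0.17, without overlap (exact permutation p = 0.1, adjusted 0.233). ELAVL1 over HNRNPD rose by 0.77, from -1.53 ± 0.29 to -0.75 ± 0.30, without overlap (exact permutation p = 0.1, adjusted 0.233). ZC3H12A over ZFP36 was also apart, higher by 0.87 (exact permutation p = 0.1, adjusted 0.233), and by 0.27 without ASO replicate 3. ELAVL1 over ZFP36 was lower by 0.87 with overlap (exact permutation p = 0.4, adjusted 0.7), and by 1.41 without ASO replicate 3.

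**Figure D3:**
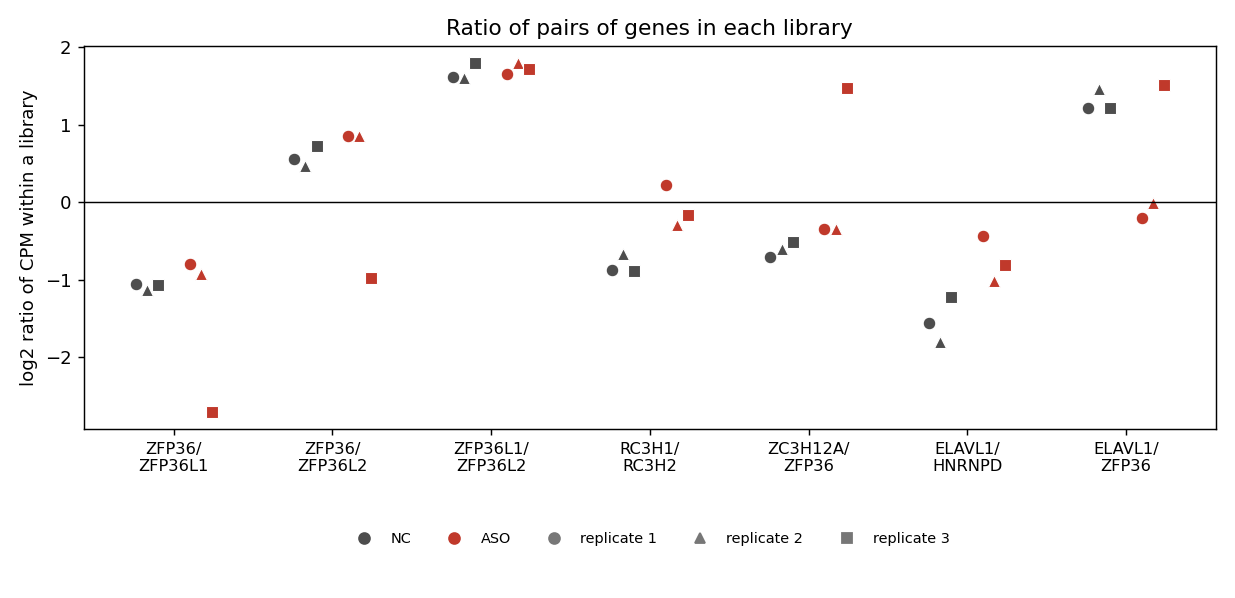
Log2 ratio of CPM of 2 genes within each library, for 7 pairs, NC in grey and ASO in red. In every pair that holds ZFP36, ASO replicate 3 (square) stands apart from ASO replicates 1 and 2, and ZFP36L1/ZFP36L2 stays between 1.60 and 1.79 in all 6 libraries.

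The genes differ in base composition, and changes over the whole table followed it. The median log2 fold change rose from -0.45 in the decile of tested genes with the lowest transcript GC content (31.8% to 39.2%) to 0.40 in the highest (63.0% to 76.0%). RC3H1 and RC3H2 are in the lowest decile, at 38.7% and 37.9% GC, HNRNPD in the third and ELAVL1 in the fourth. ZFP36L1, ZFP36L2, ZFP36 and ZC3H12A are at 49.5%, 54.4%, 57.3% and 61.1%, in the fifth, seventh, eighth and ninth. Relative to the median of the same decile, the log2 differences were 1.70 for ZC3H12A, 1.47 for ZFP36L1, 1.25 for ZFP36L2, 1.10 for both ZFP36 and RC3H1, 0.41 for RC3H2, 0.36 for ELAVL1 and -0.31 for HNRNPD. RC3H2 thus changed sign and HNRNPD lay closer to the genes of its composition. Libraries of 1 group also differed this way: in the lowest decile the median deviation from the group mean was 0.21 in NC replicate 2 and 0.34 in ASO replicate 2, against -0.26 in ASO replicate 1. RC3H1, RC3H2 and HNRNPD were each highest in replicate 2 within both groups. The part of GC content in these results was not tested.

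**Figure D4:**
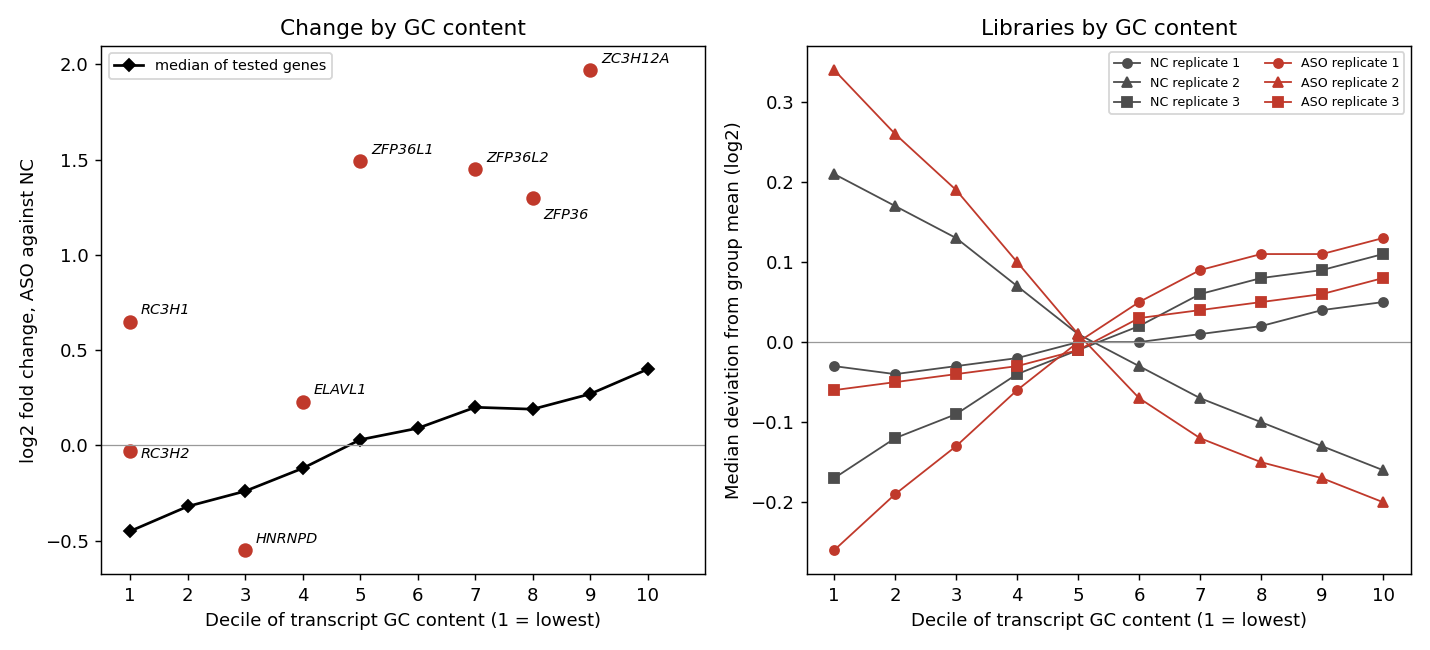
Left, log2 fold change of the 8 genes (red) and the median of all tested genes (black) by decile of transcript GC content. Right, median deviation of each library from its group mean (log2 CPM) by the same deciles. Replicate 2 of both groups runs from high at low GC to low at high GC, up to 0.34 in ASO replicate 2.

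The binders' own transcripts were searched for AREs, since ZFP36 is known to act on its own mRNA. The nonamer UUAUUUAUU, a preferred site of the ZFP36 family, was found in the 3' untranslated region of 5 of the 8 reference transcripts, ZFP36, ZFP36L1, ZFP36L2, ELAVL1 and RC3H2, and in 8.07% of the tested genes with a reference transcript. Each site is shown as DNA with 10 flanking bases on each side and the nonamer in capitals (GENCODE 29, GRCh38; strand of the transcript).
ZFP36, chr19:39409196-39409224, plus strand: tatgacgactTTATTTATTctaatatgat
ZFP36L1, chr14:68788077-68788105, minus strand: aactgttggaTTATTTATTttagaaattc
ZFP36L2, chr2:43223448-43223476, minus strand: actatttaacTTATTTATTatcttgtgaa
ELAVL1, chr19:7961828-7961856, minus strand: atttatgtatTTATTTATTgaagtgtgaa
RC3H2, chr9:122849199-122849227, minus strand: cttagttaacTTATTTATTtctattttat
RC3H2, chr9:122847702-122847730, minus strand: tgaagacattTTATTTATTtcactctgta
The pentamer AUUUA occurred 25 times in RC3H2, 21 in RC3H1, 13 in ELAVL1, 8 in ZFP36L1, 5 each in ZFP36 and ZFP36L2, 2 in HNRNPD and 0 in ZC3H12A, in 3' untranslated regions of 713 to 7507 bases. ZFP36, ZFP36L1 and ZFP36L2, each with 1 nonamer, were called higher, as were ZC3H12A with neither motif and RC3H1 without the nonamer. ELAVL1 and RC3H2, with 1 and 2 nonamers, did not pass, and HNRNPD, without the nonamer, was called lower. The part of these motifs in the changes was not tested. Over the tested genes with at least 1 nonamer, 29.2% of 1097 were called higher and 18.6% lower, with a median log2 fold change of 0.02. Of the 12489 without it, 26.4% were higher and 19.4% lower, with a median of 0.00. The 256 genes with 2 or more nonamers were higher in 32.4% and lower in 12.9%, with a median of 0.13 and a median GC content of 44.1%. Of 3608 genes with 5 or more AUUUA, 19.7% were higher and 24.9% lower, with a median of -0.18 and a median GC content of 41.8%. Genes with a nonamer had a median 3' untranslated region of 2786 bases and a median GC content of 43.9%, against 892 bases and 51.2% without.

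Other AU-rich and stem-loop binders moved in both directions: of 21 tested, 9 were higher and 3 lower, with a median log2 fold change of 0.15. The shares were 42.9% and 14.3%, against 26.8% and 19.1% of all genes tested. Both further Regnase family members named by the rule rose, ZC3H12C 4.01-fold from 3.42 ± 0.43 CPM (edgeR adjusted p = 0.000106) and ZC3H12D from 0.642 ± 0.158 to 4.61 ± 0.511 CPM (edgeR adjusted p = 0.000204). ARID5A, which is known to protect IL6 mRNA from Regnase-1, rose 4.22-fold to 32.4 ± 6.36 CPM (edgeR adjusted p = 0.00091). The poly(C)-binding protein gene PCBP2 fell 1.34-fold and TIA1, a binder of U-rich RNA known for stress granules, fell 1.63-fold (edgeR adjusted p = 0.00207 and 0.00255). KHSRP, an ARE-binding decay factor named after its values were seen, had a log2 fold change of -0.04 with a 95% interval of -0.24 to 0.16 (edgeR adjusted p = 0.744).

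The decay enzymes that these binders recruit moved in both directions. Of 63 genes of deadenylation, decapping, the exosome and nonsense-mediated decay, all tested, 8 were higher and 14 lower. That is 12.7% and 22.2%, against 26.8% and 19.1% of all genes tested, so the lower share was near that of the whole table. The median log2 fold change of the 63 genes was -0.10. In deadenylation 4 of 18 rose and 2 fell. BTG1 rose 1.93-fold and BTG2 1.56-fold, both antiproliferative adaptors of CCR4-NOT, CNOT4 rose 1.73-fold, TOB2 rose 1.27-fold, TOB1, a related adaptor, fell 1.59-fold, and CNOT1, the scaffold of the complex, fell 1.25-fold (edgeR adjusted p from 0.000457 to 0.0259). TOB2 lost its call without NC replicate 1 or 2 and without ASO replicate 1 or 3, and CNOT1 without NC replicate 2 or 3 and without ASO replicate 1 or 3. In decapping and 5'-3' decay 2 of 19 rose and 4 fell, with PATL1 up 1.49-fold and LSM2, a subunit of the LSM ring, down 1.52-fold (edgeR adjusted p = 0.00123 and 0.00309). Exosome and SKI genes fell in 6 of 16 and rose in 0 by edgeR, DESeq2 and limma-voom, with 0, 1 and 0 higher at an unadjusted p under 0.05. Their median was -0.30, and TTC37, the scaffold of the SKI complex, fell 2.16-fold (edgeR adjusted p = 0.00572). EXOSC6, an exosome subunit named after its values were seen, was at 51.3, 52.3 and 46.6 CPM in NC replicates 1 to 3 and at 0.838, 0.72 and 87.1 CPM in ASO replicates 1 to 3 (edgeR adjusted p = 0.706). Here ASO replicate 3 was the high library, where in ZFP36 it was the low one. UPF1, the helicase with which Regnase-1 is known to work, rose 1.71-fold, from 107 ± 6.70 CPM in NC to 184 ± 15.7 CPM in ASO (edgeR adjusted p = 0.000597), while UPF2 and UPF3B fell 1.94-fold and 1.43-fold (edgeR adjusted p = 0.0452 and 0.0167). The call of UPF2 was lost without any 1 of the NC libraries and without ASO replicate 3, and that of UPF3B without NC replicate 2. The 10 genes of that list were otherwise 1 higher, SMG9, and 6 that did not pass.

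Kinases and adaptors that control the 8 proteins were 3 higher and 6 lower of 20, with a median log2 fold change of -0.25. MAP2K3 and MAP2K6, the kinases that activate p38, went opposite ways. MAP2K3 went up 6.43-fold, from 44.9 ± 4.79 CPM in NC to 289 ± 29.5 CPM in ASO (edgeR adjusted p = 3.67e-06), and MAP2K6 fell 3.94-fold from 30.3 ± 5.63 to 7.68 ± 3.14 CPM (edgeR adjusted p = 0.00121). MAPKAPK2, which phosphorylates ZFP36 and weakens its action, was named after its values were seen, as was MALT1. It had a log2 fold change of -0.12 with a 95% interval of -0.33 to 0.09 (edgeR adjusted p = 0.322). BCL10, a partner of the protease MALT1 that cleaves Regnase-1 and the Roquins, rose 2.31-fold (edgeR adjusted p = 0.000377), and MALT1 itself differed by 0.06 on the log2 scale (edgeR adjusted p = 0.815). BTRC, the ubiquitin ligase subunit that recognises phosphorylated Regnase-1, fell 1.62-fold (edgeR adjusted p = 0.0169), a call lost without any 1 of the NC libraries and without ASO replicate 3.

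Known targets of the binders were mostly higher in ASO. Of 31 ARE-bearing mRNAs listed, 27 were tested and 25 were higher and 0 lower by edgeR, with a median log2 fold change of 3.21, or 2.58 with the 6 genes whose NC mean lay under the detection limit set to that limit. DESeq2 and limma-voom also called 0 lower, and each of the 3 tools had 0 lower at an unadjusted p under 0.05. Of 17 stem-loop targets of Regnase-1 and Roquin, 11 were tested, 10 higher and 1 lower, with a median of 4.31, or 3.09 with 4 genes (TNF, CSF2, IL1B and TNFRSF4) set to the limit in the same way. The filter keeps genes that are detected in ASO alone, and those had to differ, so these counts and medians describe the genes that passed and support nothing further. Without the genes under the limit in NC, 19 of 21 and 6 of 7 were higher, and 2861 of 12884 over all tested genes restricted in the same way. The lists were chosen with earlier results of these data known, so these counts are no independent support either. The lists are not independent, since 8 of the listed genes are on both, 6 of them tested. The most significant targets on both lists were CXCL2, TNF and IL6, all secreted inflammatory mediators. CXCL2 and IL6 rose 19.9-fold and 33.2-fold (edgeR adjusted p = 3.76e-07 for both), and TNF went from 0.114 ± 0.0323 CPM, under the detection limit of 0.229 CPM (3 fragments of 4 counts), to 55.2 ± 5.32 CPM. NFKBIZ, a nuclear NF-kB cofactor and target of Regnase-1, rose 6.05-fold to 45.0 ± 7.52 CPM (edgeR adjusted p = 0.000124), and it was named after its values were seen. TFRC, the transferrin receptor, was the target that fell, by 1.59-fold from 685 ± 89.0 to 432 ± 137 CPM (edgeR adjusted p = 0.0328), and its call was lost without any 1 of the NC libraries and without ASO replicate 1 or 3.

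**Figure D5:**
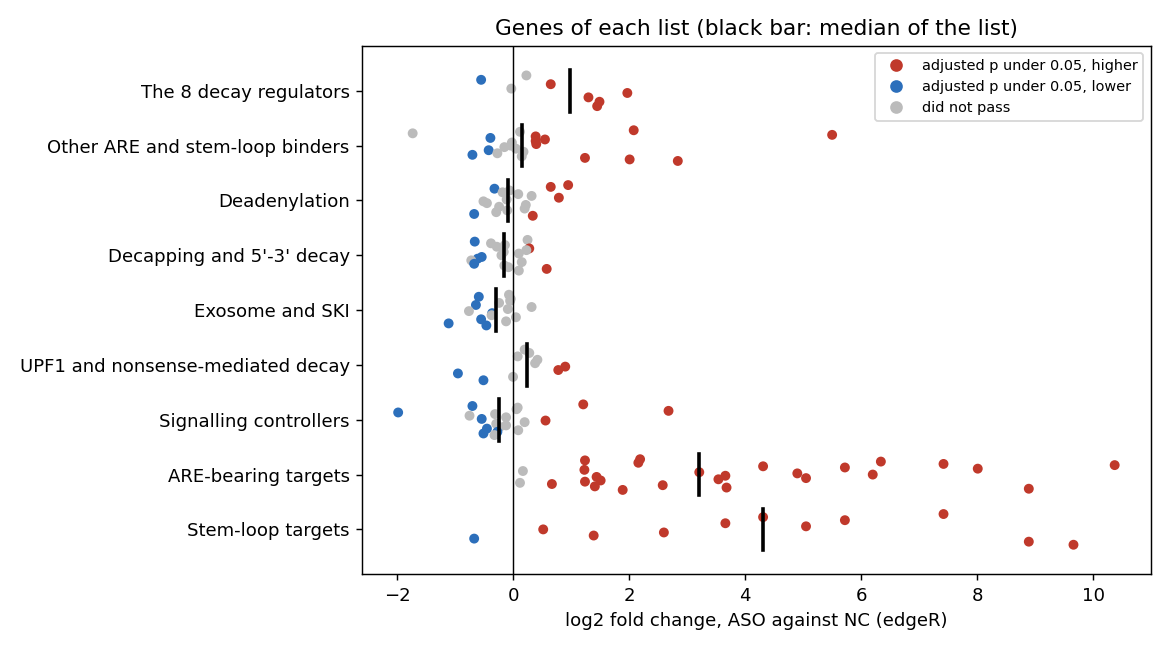
Log2 fold change of each tested gene, ASO against NC, by list. Red and blue mark an edgeR adjusted p under 0.05 and the black bar is the list's median, 0.98 for the 8 regulators, -0.30 for exosome and SKI genes and 3.21 for the ARE-bearing targets that passed the filter.

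For each called gene, the genes with the most similar profile over the 6 libraries were found by the root mean square difference of mean-centred log2 CPM, among 12475 genes at 1 CPM or more. The nearest to ZFP36L1 was IQCC (0.016), followed by the cytokine gene CSF1 and by TPBG. ZFP36L2 was nearest to the linker histone gene H1-2 (0.049), then TENT5B and BCL2L1, and ZC3H12A to the spermine oxidase gene SMOX (0.038), then HELZ2 and the ephrin gene EFNA1. RC3H1 was nearest to CCDC65 (0.046), and HNRNPD to GGH (0.048), PAIP1 and LUC7L3. ZFP36 had no close match, since its nearest gene, NDUFA4L2, was at 0.216, followed by BBC3 and SMURF1. SMURF1 was at 126, 124 and 57.7 CPM in ASO replicates 1, 2 and 3 and at 48.9 to 61.6 CPM in NC, so it shared the low ASO replicate 3. These likenesses describe 6 libraries that fall into 2 groups.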

How the data were processed

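The authors deposited 1 table of estimated counts by gene symbol, in whole numbers without depth scaling. STAR, StringTie, FastQC and DESeq2 are named in the submitters' processing notes with the build hg38, without versions or roles, and the counting of strand and of multi-mapped reads is not given in the sources used here. The most frequent count above 0 was 4 in every library, so 1 fragment may be worth about 4 counts, and 12 counts per library were taken as the detection limit (counting error only). Coordinates are those of the table. All 18809 of its symbols found in GENCODE 29 (GRCh38) overlap the gene of that name there, though the exact bounds can differ, as for RC3H1.

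Differences were tested with edgeR 4.0.16 (R 4.3.3), using filterByExpr by group (minimum count 10, minimum total 15; 14062 genes kept, 5593 removed), TMM scaling, robust quasi-likelihood test without a replicate block, Benjamini-Hochberg adjustment over all genes tested, threshold 0.05. The standard error is the log2 fold change over the root of F. Ratios used log2 CPM with a prior count of 2. Values are mean ± SD, n = 3. Transcript lengths, GC content and motifs are of GENCODE 29 principal transcripts, and upstream sequences are from RefSeq. Alternatives were RLE, upper-quartile and no scaling, other filters, DESeq2 1.42.0, limma-voom (limma 3.58.1), counts divided by 4, a replicate block, a GC adjustment and leaving out each library. The genes and lists were chosen with earlier results of these data known. Named genes were all 8 regulators, up to 3 called genes per list and direction by smallest p at 1 CPM or more (all, where 5 or fewer were called), and up to 3 most similar profiles per called gene, of which some are not reported here. Replicates of 1 group differed by more than sampling noise.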

Additional observations from a re-analysis of the deposited data

How the results depend on the processing

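Of 120 results for the 8 genes under 15 alternative fits each, 100 kept their direction and call, 14 lost the call, 3 gained it and 3 changed sign. ZFP36L1, ZFP36L2 and ZC3H12A kept theirs throughout. The sign changes were those of RC3H2, 0.02 without NC replicate 2, 0.14 without ASO replicate 1 and 0.03 without ASO replicate 3, within a range of -0.32 to 0.14 when single libraries were left out, and relative to its GC decile it was 0.41; the cause was not tested. Replicate numbers are shared by the groups, but the deviations of same-numbered libraries correlated at 0.103, 0.353 and 0.089, so they were not taken as pairs, and not every library correlated best with its own number, since NC replicate 3 and ASO replicate 1 did so with each other (0.209). With a replicate block the calls numbered 3924 higher and 3494 lower over all genes and 5 and 1 among the 8 genes, with ZFP36 lost (edgeR adjusted p = 0.158) and ELAVL1 gained (edgeR adjusted p = 0.0255). Averaging within replicate numbers cannot move the ratio differences.

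Of 300 comparisons of a count of called genes with its alternative, 45 moved by over 1.5 times, in 13 of the 15 alternatives (all but limma-voom and DESeq2). Decapping genes called higher were 1 with upper-quartile scaling and with no filter, exosome genes called higher 1 with the replicate block, and nonsense-mediated decay genes called higher 4 with counts divided by 4 and with the block. The same list called lower was 1 with RLE scaling, library size alone, either other filter and counts divided by 4. Leaving out single libraries gave 3128 to 3927 genes higher and 1755 to 3199 lower over all genes, 3 to 5 and 0 to 1 among the 8, 8 to 9 and 2 to 5 for other binders, 3 to 6 and 1 to 4 for deadenylation, 1 to 2 and 2 to 5 for decapping, 0 to 1 and 4 to 7 for the exosome, 2 to 4 and 0 to 2 for nonsense-mediated decay, 3 and 1 to 6 for signalling controllers, 22 to 25 and 0 for ARE-bearing targets, and 8 to 10 and 0 to 1 for stem-loop targets. The ratio of ZFP36 to ZFP36L1 ran from -0.73 to 0.22 and that to ZFP36L2 from -0.65 to 0.27, the positive values without ASO replicate 3. Depth limits none of the 8 genes, whose counts all exceed 1000 per library.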
